A study of Canis lupus familiaris with 186 samples.

Results

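The 8 receptor tyrosine kinases examined in primary canine osteosarcoma are targets of kinase inhibitors or antibodies: KIT, PDGFRA, PDGFRB, MET, EGFR, ERBB2, IGF1R and AXL. They were chosen by name, as the rows of the deposited table whose gene symbol matches a member, and the 8 rows are 8 of 37952 genes. mRNA sequencing was done on 186 primary tumors, each from a different pet dog enrolled in the canine trials COTC021 (93 tumors) or COTC022 (93 tumors). All tumors were appendicular, were taken before treatment, and came from dogs with no prior therapy and no visible metastasis. The treatment given after amputation is not part of the sample labels, so trial is the grouping used, and disease-free interval and survival were not analysed here.

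Receptor tyrosine kinases are membrane proteins that bind a growth factor outside the cell, pair up and phosphorylate one another inside it. The signal passes through adaptor proteins to the RAS-ERK and PI3K-AKT cascades, which drive growth, survival and movement. In bone, IGF1R and the PDGF receptors serve osteoblasts and the mesenchymal cells they come from, KIT is best known from mast cells and blood progenitors, and MET, EGFR, ERBB2 and AXL are widely expressed in epithelium, mesenchyme and, for AXL and MET, some myeloid cells.

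Total counts ran from 6587631 to 27420857 per tumor, with a median of 10797162. The deposited column names take 2 forms. The 50 libraries with a doubled separator in the name (double-form libraries) had a median total of 19440450, against 9851681 in the other 136 (single-form libraries), and 18 of the 50 belonged to COTC021. What the forms stand for is not stated in the labels. The labelled tissue was checked against osteoblast markers, of which 10 of 10 passed the filter on low counts, among them COL1A1, the main bone collagen, with a median of 20451 CPM (counts scaled to the library total). One tumor stood apart. That of COTC022 dog 1709 had the lowest osteoblast score of the 186 (-2.73, a mean of z-scores), the highest T cell score (3.79) and the third highest macrophage score (1.94), and the lowest level of 4 members. Results that rest on it are given with and without it.

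The stem cell factor receptor KIT and the PDGF receptors form one structural class. All 8 members passed the filter, and no member was at 0 in any tumor. Levels are given as CPM, and they were not compared between genes because transcript lengths were not used here. KIT, on chromosome 13 at bases 47870472 to 47952050 of the GSD_1.0 build, ranged from 0.648 to 76.7 CPM around a median of 10.4 in COTC021, and from 0.278 to 60.5 around 8.74 in COTC022. Its lowest value was 2 counts, in COTC022 dog 1010, for which the exact 95% binomial interval, covering counting error only, ran from 0.0337 to 1.00 CPM. PDGFRA, the receptor for most PDGF chains, on chromosome 13 at bases 47418193 to 47464247, ranged from 25.8 to 1454 CPM around 254 in COTC021 and from 4.56 to 1589 around 211 in COTC022. PDGFRB, which marks pericytes, on chromosome 4 at bases 59841270 to 59877207, ranged from 27.0 to 566 CPM around 144 in COTC021 and from 15.5 to 454 around 133 in COTC022. The trials overlapped over nearly the whole range of each of these receptors. The lowest PDGFRA and PDGFRB values belonged to dog 1709, and without that tumor the lowest were 18.6 and 27.0 CPM.

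MET, the receptor for hepatocyte growth factor, on chromosome 14 at bases 55755770 to 55839237, ranged from 0.928 to 298 CPM around 25.1 in COTC021 and from 1.81 to 63.0 around 22.8 in COTC022. EGFR, on chromosome 18 at bases 5960845 to 6158207, ranged from 1.41 to 322 CPM around 16.8 in COTC021 and from 0.823 to 135 around 17.4 in COTC022. For both genes 1 COTC021 tumor lay far above the rest: the second highest MET value was 157 CPM and the second highest EGFR value was 135 CPM. ERBB2, the ligandless partner of the other EGFR family receptors, on chromosome 9 at bases 22713484 to 22737693, ranged from 10.3 to 122 CPM around 42.5 in COTC021 and from 2.21 to 110 around 40.1 in COTC022. Its highest value was 2.93 times the median over all tumors, the smallest such ratio among the 8, against 19.0 for EGFR and 12.7 for MET.

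IGF1R, the receptor for insulin-like growth factors 1 and 2, on chromosome 3 at bases 42179556 to 42481580, ranged from 28.8 to 304 CPM around 83.1 in COTC021 and from 20.5 to 400 around 80.6 in COTC022. AXL, the receptor for GAS6, on chromosome 1 at bases 113484923 to 113511641, ranged from 2.62 to 296 CPM around 60.9 in COTC021 and from 8.26 to 303 around 59.2 in COTC022. Spread between tumors differed among the members. The SD of the TMM-normalized log2 level was highest for EGFR, followed by 1.19 for MET, 1.17 for KIT and AXL, 1.13 for PDGFRA, 0.84 for PDGFRB, 0.77 for IGF1R and 0.69 for ERBB2. Among all 13422 genes kept, these SDs ranged from the 58.1 percentile for ERBB2 to the 87.1 percentile for EGFR.

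**Figure D1:**
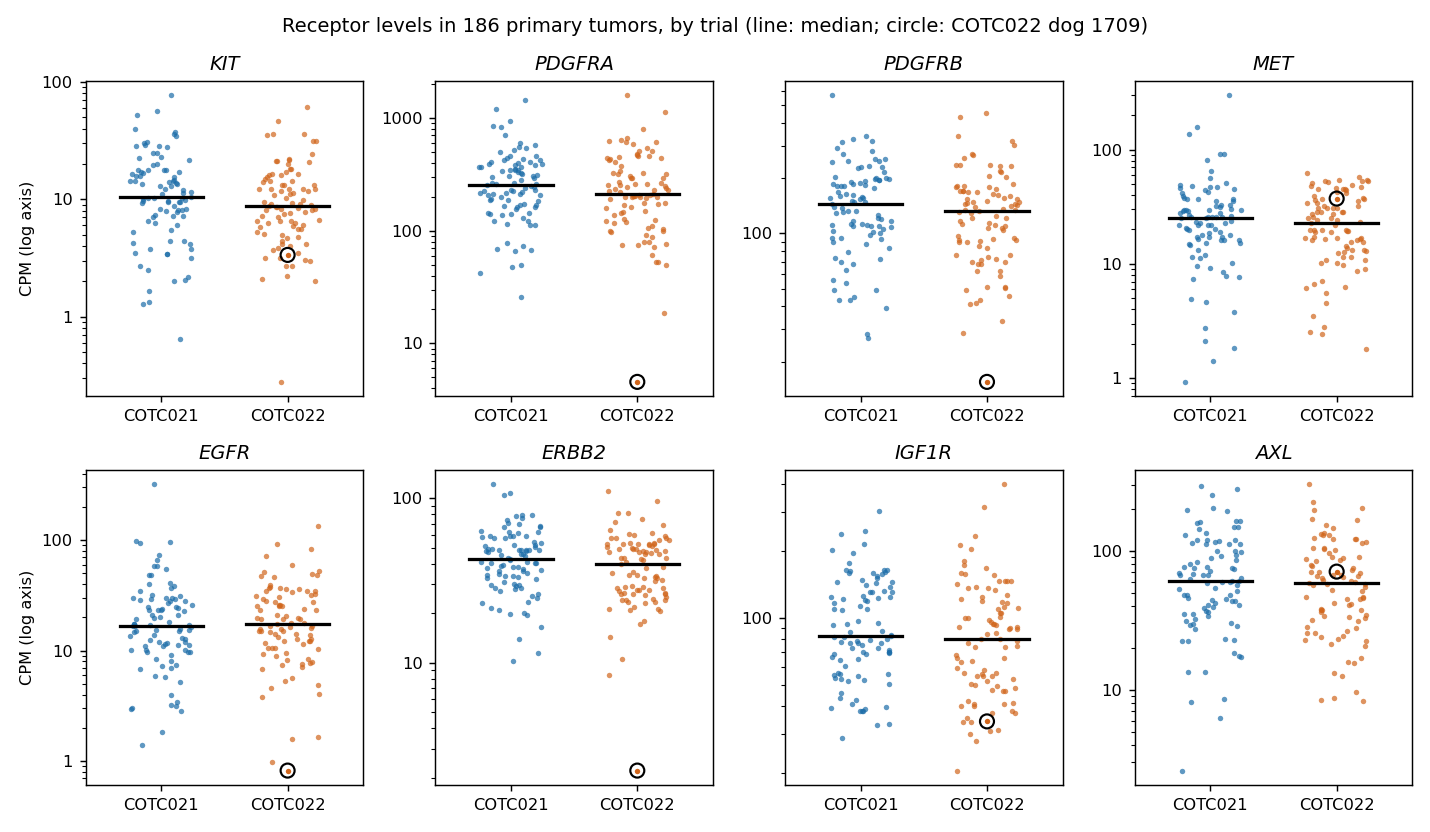
CPM of each receptor (log axis) in the 93 tumors of COTC021 and the 93 of COTC022, 1 point per tumor, with the median of each trial as a line and COTC022 dog 1709 circled. The clouds of both trials overlap for every receptor, with single COTC021 tumors at 298 CPM for MET and 322 CPM for EGFR, and the circled tumor is the lowest for PDGFRA, PDGFRB, EGFR and ERBB2.

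The first comparison asked whether receptor levels differed between the trials. Of the 8 members, 0 were called by limma-voom at an adjusted p under 0.05, where 0.0149% of all genes were called higher in COTC022 and 0% lower. This was 2 genes of 13422, although 1332 had an unadjusted p under 0.05, and edgeR called 129 and DESeq2 71. For each of the 8 members the estimate for COTC022 minus COTC021 was below 0 on the log2 scale, from -0.22 (SE 0.16, adjusted p 0.713) for PDGFRA to -0.0022 (SE 0.19, adjusted p 0.999) for EGFR, and the smallest adjusted p was 0.631, for ERBB2. Of the 8, 0 had an unadjusted p under 0.05, and edgeR and DESeq2 called 0 members. P-values here measure the spread between tumors of different dogs. The split by form of library name was tested in the same way, with trial as a covariate. Among all genes 1.92% were called higher and 2.35% lower in the double-form libraries, but 0 of the 8 members. Unadjusted, KIT alone of the 8 was under 0.05 (p 0.00348), and edgeR and DESeq2 called 0 members as well. KIT came closest, at a median of 11.8 CPM in those libraries against 9.30 CPM in the others, with overlapping ranges, a log2 difference of 0.51 (SE 0.17) and an adjusted p of 0.0673.

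The second comparison asked how the receptors moved with GS-1, an immune gene signature that the study used to group tumors. Because the group of each tumor is not in the sample labels, a continuous score was computed from the 27 signature genes that passed the filter, none of which is a receptor considered here, and no tumor was placed in a group. Slopes are log2 changes per SD of the score, fitted over all 186 tumors with trial as a covariate. At a higher score 4 members were lower and 1 was higher, where 26.2% of all genes were called lower and 22.3% higher.

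PDGFRA fell by 0.34 (SE 0.078, adjusted p 0.000104) per SD, and ERBB2 fell by 0.31 (SE 0.046, adjusted p 1.69e-09). IGF1R fell by 0.21 (SE 0.055, adjusted p 0.000877) and KIT fell by 0.22 (SE 0.089, adjusted p 0.0301). MET rose by 0.24 (SE 0.083, adjusted p 0.0130). These 5 slopes passed the limma-voom threshold. The slope was 0.17 for AXL (adjusted p 0.0896), 0.026 for PDGFRB (adjusted p 0.750) and -0.093 for EGFR (adjusted p 0.446), none of which passed.

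The tumor of dog 1709 had the highest score of all (4.37 SD). Without it the slope was -0.26 for ERBB2 (adjusted p 1.06e-06), -0.20 for IGF1R (adjusted p 0.00275) and 0.24 for MET (adjusted p 0.0206). PDGFRA went to -0.23 (adjusted p 0.0132), and KIT, at -0.22, missed the threshold (adjusted p 0.0506). MET was called by limma-voom and not by edgeR (slope 0.071, adjusted p 0.496) or DESeq2 (adjusted p 0.468).

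Within the trials, ERBB2 passed in both, at -0.27 in COTC021 (adjusted p 0.000505) and -0.35 in COTC022 (adjusted p 1.22e-05). PDGFRA was at -0.15 in COTC021 (adjusted p 0.326) and -0.54 in COTC022 (adjusted p 4.37e-05), the trial that holds dog 1709. IGF1R was at -0.16 (adjusted p 0.108) and -0.26 (adjusted p 0.00710), MET at 0.19 (adjusted p 0.280) and 0.27 (adjusted p 0.0323), and KIT at -0.22 (adjusted p 0.239) and -0.23 (adjusted p 0.105). The difference between the trials was itself tested, and limma-voom called 0% of genes (0 of 13422, with 374 at an unadjusted p under 0.05 and 2 called by edgeR). For PDGFRA that difference was -0.39 (SE 0.15, unadjusted p 0.0118, not called after adjustment) with dog 1709 and -0.20 (SE 0.16) without it. With edgeR it was -0.27 (unadjusted p 0.110).

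ERBB2 and IGF1R passed in both forms of library name, at -0.25 and -0.19 in single-form and -0.35 and -0.25 in double-form libraries. The slopes of PDGFRA were -0.17 (adjusted p 0.188) in the 136 single-form libraries and -0.59 (adjusted p 0.000271) in the 50 double-form libraries. A test of that difference again called 0% of genes (0 of 13422, with 960 at an unadjusted p under 0.05 and 3 called by edgeR). For PDGFRA it was -0.47 (SE 0.17, unadjusted p 0.00491, not called after adjustment) with dog 1709 and -0.21 without it. With edgeR, PDGFRA was at -0.13 (unadjusted p 0.494). EGFR was at -0.48 (unadjusted p 0.0225), at -0.34 without dog 1709, and at -0.78 with edgeR (unadjusted p 0.000744). None of these was called after adjustment.

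Correlations with the score were computed as well, and p-values given beside a rho and an r here and later are those of the rho. ERBB2 had a Spearman's rho of -0.378 and a Pearson's r of -0.461 (permutation p 1e-05, the smallest that 100000 resamples can give), and its r was -0.403 without the 2 tumors farthest from its median. IGF1R had a rho of -0.272 and an r of -0.264. For PDGFRA the rho was -0.153 (permutation p 0.0386, adjusted 0.0800 over the 170 relations described later) and the r was -0.290 (permutation p of r 7e-05), and r was -0.150 without the 2 farthest tumors. PDGFRB had a rho of 0.191 (permutation p 0.00878) with an r of 0.035 (permutation p of r 0.637), and without dog 1709 these were 0.210 and 0.129.

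**Figure D2:**
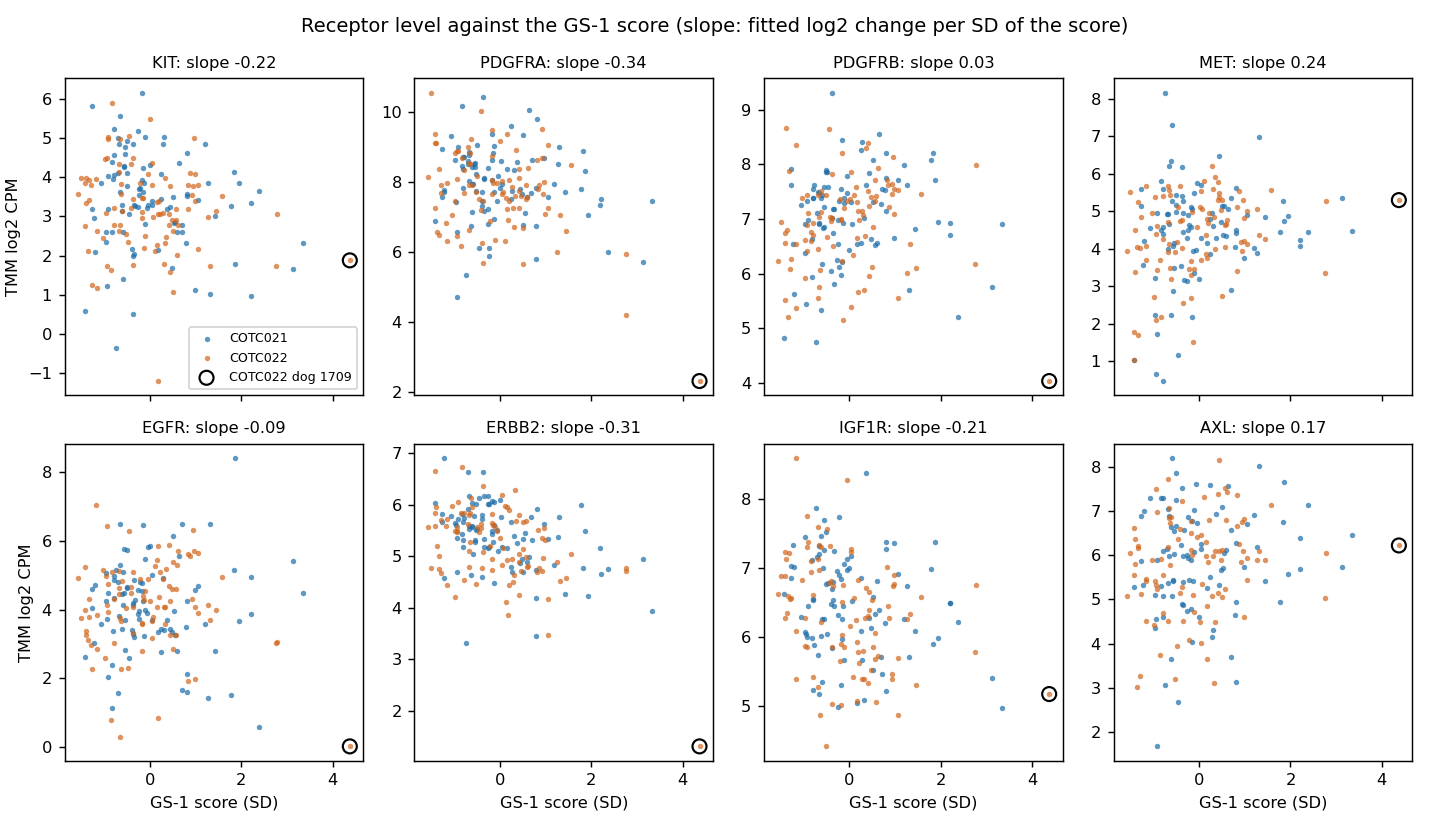
Normalized log2 CPM of each receptor against the GS-1 score in SD, 1 point per tumor, colored by trial, with the fitted log2 change per SD in each title and COTC022 dog 1709 circled. The fitted ERBB2 slope is -0.31, and -0.26 without the circled tumor. In the PDGFRA, PDGFRB, EGFR and ERBB2 panels the circled tumor is the lowest point, at the highest score (4.37 SD).

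Markers of several cell types moved with the score too, where 26.2% of all genes were called lower and 22.3% higher. All 9 of 9 macrophage markers and 4 of the 4 T cell markers that passed the filter rose with it. The score is itself made of immune genes, C1QB and CD53 among them, so the rise of these lists is not a separate result. Of the osteoblast markers 6 of 10 fell and 1 rose, and 10 of 10 proliferation genes fell. Cartilage markers fell in 7 of 7, endothelial markers rose in 7 of 10, and osteoclast markers rose in 2 of 8. Of the fibroblast markers 2 of 9 rose and 1 fell, and of the pericyte and smooth muscle markers 3 of 9 rose and 2 fell. Epithelial and adipocyte markers rose in 1 of 1 and 1 of 2, those of mast cells (1 gene), marrow cells (2) and skeletal muscle (7) had 0 calls, and 0 of 4 nerve sheath markers passed the filter. The summed level of the macrophage list ran from 74.2 to 6455 CPM over the tumors and that of the T cell list from 2.04 to 2841 CPM. In bulk tumors fewer cells that express a receptor and less of its RNA per cell cannot be told apart, and the part of these cell types in the receptor slopes was not tested.

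Of 21 genes listed as ligands of the 8 receptors or of their families, 13 passed the filter. Of these, 4 rose with the GS-1 score (30.8%, against 22.3% of all genes) while 1 fell (7.69%, against 26.2%). NRG1, a neuregulin that signals through ERBB2 with its partner ERBB3, rose by 0.72 (SE 0.10), HGF, the ligand of MET, by 0.47 (SE 0.092), IGF1 by 0.46 (SE 0.11) and PDGFB by 0.18 (SE 0.060). PDGFD, a ligand of PDGFRB, fell by 0.31 (SE 0.067). All 5 had adjusted p-values of at most 0.00977. The median slope of the 13 was 0.08, against -0.02 over all genes. The EGFR ligands EGF, TGFA, AREG, EREG, BTC and EPGN did not pass the filter, with medians of at most 0.194 CPM, although EREG reached 120 CPM in 1 tumor.

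Of 12 further receptors listed beside the members, 11 passed the filter. With the score 3 rose (27.3%, against 22.3% of all genes) and 4 fell (36.4%, against 26.2%). CSF1R, the macrophage growth factor receptor of the KIT class, rose by 0.64 (SE 0.072), FLT3 by 0.56 (SE 0.052) and the VEGF receptor KDR by 0.15 (SE 0.065, adjusted p 0.0454). IGF2R, which binds IGF2 but is not a receptor tyrosine kinase, fell by 0.31 (SE 0.055). The insulin receptor INSR fell by 0.20 (SE 0.059), the MET relative MST1R by 0.46 (SE 0.12) and the AXL relative TYRO3 by 0.35 (SE 0.048). MERTK, the third receptor of the AXL family, was at 0.066 (adjusted p 0.305) and ERBB3 at 0.14 (adjusted p 0.252).

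Of 58 listed receptor tyrosine kinases, the members included, 43 passed the filter, and 22 of these fell with the score (51.2%, against 26.2% of all genes) and 5 rose (11.6%, against 22.3%). Their median slope was -0.14, against -0.02 over all genes. The steepest was FGFR3, a receptor of cartilage and bone growth, which fell by 0.84 (SE 0.13). Next among those that fell came EPHB2, EPHA3 and EPHA5, by 0.75, 0.62 and 0.55. FGFR2 fell by 0.45, less than INSRR (0.51) and MST1R (0.46). Trial gave 0 calls among the 43, and library name gave 1, LMTK2, higher by 0.24 in double-form libraries (adjusted p 0.0437). Of the 13 genes induced by ERK signaling that passed the filter, 3 rose with the score, a share of 23.1% that is near the 22.3% of all genes, namely DUSP5 by 0.47, DUSP6 by 0.39 and ETV5 by 0.25, and 0 fell. Among 10 adaptors and negative regulators 4 rose (40%, against 22.3% of all genes), GAB2 by 0.41, LRIG1 by 0.33, GRB2 by 0.22 and CBL by 0.16. SHC1 fell by 0.14, as 1 of the 10 (10%, against 26.2%). Of 7 IGF binding proteins and substrates that passed, 2 rose and 2 fell (28.6% each), shares near those of all genes. IGFBP7 rose by 0.36 and IGFBP4 by 0.25, while IGFBP5 fell by 0.39 and IRS1 by 0.29.

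Receptors were next compared with each other across the 186 tumors. In all, 170 relations were computed for the members, made up of 28 pairs of members, 14 pairs of a receptor and a ligand or partner, 120 with gene list scores and 8 with the GS-1 score, and adjusted values are over all 170. Of the 28 pairs, 17 (60.7%) had a permutation p for rho under 0.05. Such values are common in these tumors, since an absolute rho of 0.144 reaches that p, and 36.8% of all pairs of kept genes and 41.2% of the pairs of a member with any other gene did so. Each rho was therefore also set against the central 95% of the rhos of the same receptor with all other genes. By that measure 2 of the 28 pairs, KIT with PDGFRA and ERBB2 with IGF1R, lay outside the range of both receptors, and KIT with PDGFRB lay outside that of KIT alone. KIT and PDGFRA were the most alike, with an r of 0.484 and a rho of 0.503 (permutation p 1e-05, adjusted 0.000106). PDGFRA ranked first of the other 13421 genes by rho with KIT, and KIT ranked 5 for PDGFRA. The rho was 0.508 in COTC021, 0.512 in COTC022, 0.461 in single-form libraries, 0.632 in double-form libraries, and 0.497 without dog 1709, and r was 0.469 without the 2 tumors farthest from the KIT median.

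ERBB2 and IGF1R came next, with an r of 0.378 and a rho of 0.394 (permutation p 1e-05, adjusted 0.000106), at 0.254 in COTC021 and 0.505 in COTC022. KIT with PDGFRB had a rho of 0.312 (adjusted p 0.000296 by permutation), and PDGFRB had rhos of 0.308 with AXL and 0.298 with MET. EGFR had rhos of 0.294 with AXL and 0.292 with MET. These 4 values lay inside the central 95% of both receptors. The one pair of the 17 with a negative rho was MET and ERBB2, with an r of -0.241 and a rho of -0.188 (permutation p 0.0102, adjusted 0.0267), and within the trials its rho was -0.170 and -0.186, neither with a permutation p under 0.05 (0.103 and 0.0746).

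KIT and PDGFRA are neighbors on chromosome 13, with 406 kb between them, so the other genes around each receptor were described by their rho with it, with no test. Those named outside the 5 most similar genes were picked after their values were seen. Neighbors share a chromosome region, and all correlations share the same 186 libraries. Of the 5 named genes most like PDGFRA, 4 lie within 1 Mb of it. SCFD2, a protein linked to vesicle traffic, stood at a rho of 0.669 and a distance of 728 kb, the ubiquitin ligase LNX1 at 0.604 and 471 kb, the RNA processing factor FIP1L1 at 0.513 and 646 kb, and KIT at 0.503 and 406 kb. The other was SETBP1 (0.506), which is not within 1 Mb. The rho of SCFD2 was 0.567 in COTC021 and 0.749 in COTC022, and 0.665 without dog 1709. Over the 9 kept genes within 1 Mb of PDGFRA the median rho was 0.497, against -0.00044 for PDGFRA with all other genes. The lowest of the 9 was KDR, at 0.0088 and 742 kb.

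The median rho of neighbors within 1 Mb was lower for the other receptors. It was 0.311 for EGFR (7 genes), 0.260 for MET (8 genes), 0.240 for ERBB2 (41 genes), 0.215 for IGF1R (9 genes), 0.194 for KIT (10 genes), 0.177 for PDGFRB (29 genes) and 0.0043 for AXL (53 genes). For ERBB2, 2 of the 5 most similar genes lay in the window, PCGF2 at 706 kb (rho 0.587) and CASC3 at 336 kb (rho 0.575). Closer to ERBB2, the rho was -0.0072 for MIEN1 (1 kb), 0.238 for PGAP3 (9 kb) and -0.090 for TCAP (26 kb). It was -0.129 for IKZF3 (27 kb), 0.143 for STARD3 (30 kb) and 0.493 for ORMDL3 (163 kb). For PDGFRB 1 of 5 lay in the window, NDST1 at 287 kb (rho 0.550). Of the genes near EGFR, LANCL2 at 144 kb had a rho of 0.550 and VOPP1 at 236 kb of 0.410. For IGF1R the highest rho of any gene, 0.593, belonged to an uncharacterized gene without a symbol that lies 111 kb away. For AXL the median over all other genes was 0.0059.

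**Figure D3:**
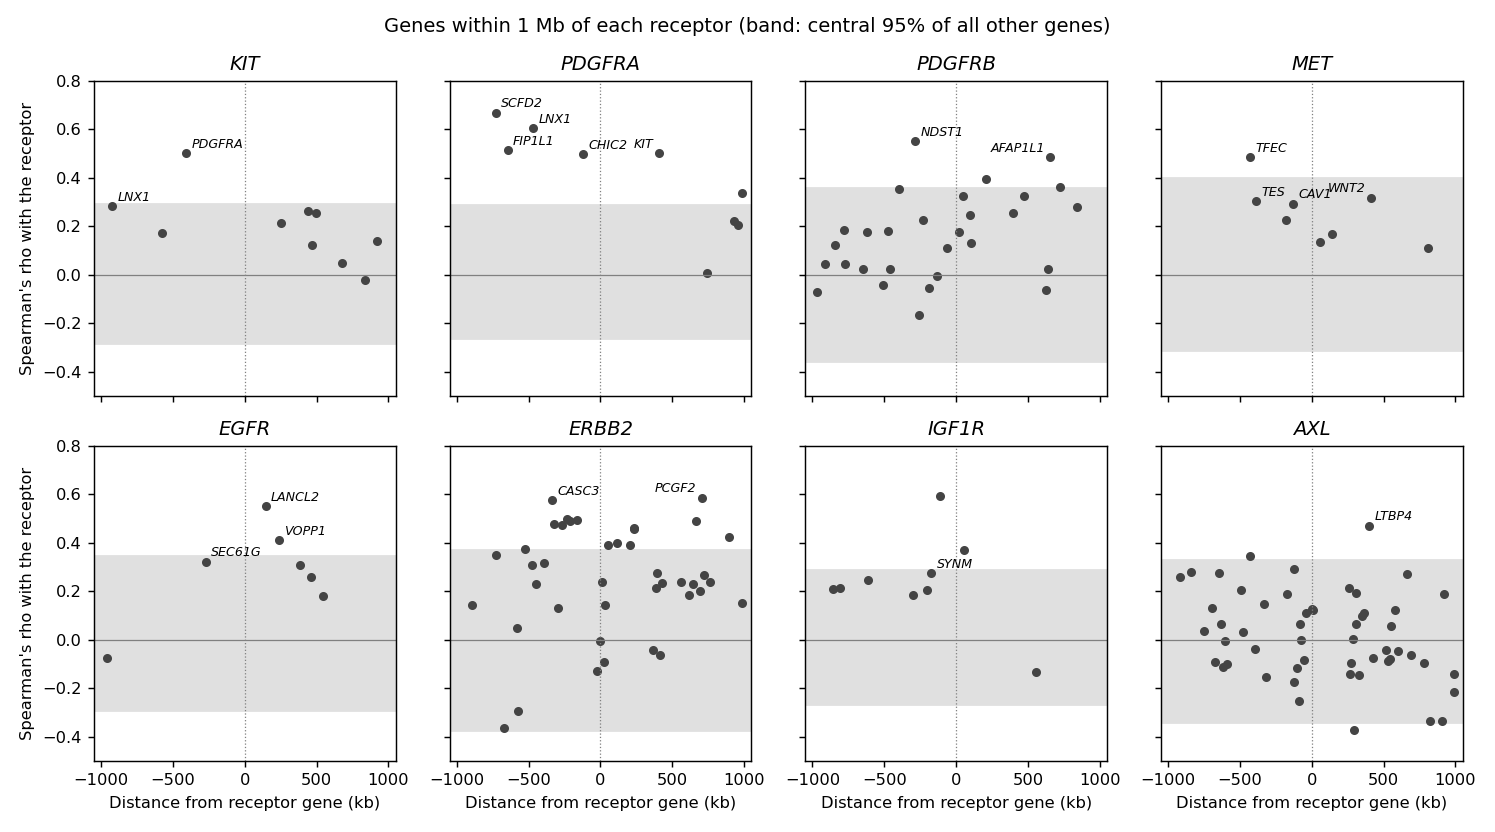
Spearman's rho with the receptor over 186 tumors for each kept gene within 1 Mb, by distance from the receptor gene in kb (0 at the receptor), with a band for the central 95% of all other genes. Of the 9 genes near PDGFRA, 5 lie between 0.497 and 0.669, above the band, and CLOCK (0.338) also lies above it. The 53 genes near AXL have a median of 0.0043.

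Of the 14 pairs of a receptor with a ligand or partner, 9 (64.3%) had a permutation p under 0.05, against 41.2% of the pairs of a member with any other gene, and 3 of these had a negative rho. Outside the central 95% of the receptor with all other genes lay 2 of the 14, PDGFRB with PDGFB and AXL with GAS6, and the other pairs lay inside it. PDGFRB and PDGFB had a rho of 0.397 (r 0.405, permutation p 1e-05, adjusted 0.000106), at 0.388 and 0.414 within the trials. AXL had a positive rho with its ligand GAS6, at 0.364 (r 0.385, permutation p 1e-05). With PROS1, protein S, its rho was 0.322 (r 0.305, permutation p 2e-05), at 0.397 in single-form and 0.101 in double-form libraries. PROS1 counts among the 14 pairs as a gene of the ligand list, and AXL is not taken here as its receptor. Negative values were found for ERBB2 with NRG1, at a rho of -0.314 (r -0.278, permutation p 1e-05), and for EGFR with HBEGF, the one EGFR ligand tested here that passed the filter, at -0.281 (r -0.273, permutation p 0.0001). The IGF axis was split, with a rho of 0.245 for IGF1R and IGF2 (permutation p 0.00074) and -0.212 for IGF1R and IGF1 (permutation p 0.00386), and neither passed within COTC021. PDGFRA with PDGFC had a rho of 0.214 (permutation p 0.00344), at 0.340 in COTC021 and 0.034 in COTC022. For KIT and KITLG the rho was 0.132 (permutation p 0.0733), for MET and HGF 0.154 (permutation p 0.0355, adjusted 0.0745), and for ERBB2 and its partner ERBB3 0.089 (permutation p 0.224). PDGFRA with PDGFA (0.003), PDGFRA with PDGFB (0.048) and PDGFRB with PDGFD (0.014) were all near 0.

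Gene list scores, the mean z-score over the listed markers that passed the filter, were then set against each receptor. In all, 14 cell type or process lists and the ERK list had a gene left after the filter, and 54 of the 120 relations (45.0%) had a permutation p under 0.05, close to the 41.7% of all genes against the same scores. Outside the central 95% of all genes for the same score lay 6 of the 120, namely MET with osteoclast markers, PDGFRB with the ERK list, and ERBB2 with macrophage, endothelial, T cell and skeletal muscle markers (rho -0.257 for the last). The other rhos with list scores given here lay inside it. The largest rho was that of MET with osteoclast markers such as ACP5 and CTSK, enzymes of bone resorption, at a rho of 0.555 and an r of 0.547 (permutation p 1e-05). It was 0.581 in COTC021, 0.516 in COTC022, 0.582 and 0.458 in the library forms, and r was 0.518 without the 2 farthest tumors. The summed level of the 9 osteoclast markers in the table ran from 83.2 to 39470 CPM. The 5 genes most like MET were MPP7 (rho 0.671), the focal adhesion adaptor PXN (0.670), KIAA1522 (0.652), the RAC activator DOCK5 (0.634) and KIAA0513 (0.632), and its neighbor TFEC, a transcription factor of the myeloid and osteoclast lineage, stood at 0.486.

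PDGFRB had positive rhos with pericyte and smooth muscle markers (rho 0.408, r 0.480, permutation p 1e-05) and with endothelial markers (rho 0.410, r 0.423, permutation p 1e-05), and its rho with the ERK list was 0.457 (r 0.397, permutation p 1e-05), the highest of the 8 receptors for that list. With proliferation genes it was -0.337 (permutation p 1e-05). The genes most like PDGFRB were GARRE1 (0.574), CYP1B1 (0.571), OLFML2A (0.557), the receptor NOTCH1 (0.552) and NDST1 (0.550).

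EGFR followed fibroblast markers (rho 0.415, r 0.464, permutation p 1e-05) and cartilage markers (rho 0.323, r 0.364, permutation p 3e-05), and it went against osteoblast markers (rho -0.250, permutation p 0.00059). Its most similar genes were matrix genes, with LAMB1 at 0.605, COL3A1, itself one of the fibroblast markers, at 0.584, THBS2 at 0.581 and VCAN at 0.573, followed by the receptor ROR1 at 0.572. AXL also followed fibroblast markers (rho 0.365, r 0.332, permutation p 1e-05) and went against proliferation (rho -0.377, r -0.327, permutation p 1e-05). Genes most like AXL were LHFPL6 (0.536), F5 (0.507), YPEL2 (0.504) and FOXP1 (0.503).

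ERBB2 ran against macrophage markers (rho -0.417, r -0.409, permutation p 1e-05), endothelial markers (rho -0.357, permutation p 1e-05) and T cell markers (rho -0.317, permutation p 4e-05), and with osteoblast (rho 0.268, permutation p 0.00015) and cartilage markers (rho 0.268, permutation p 0.00023). Its negative rho with macrophage markers was -0.389 in COTC021, -0.452 in COTC022 and -0.407 without dog 1709. After PCGF2 and CASC3, its most similar genes were PTPRS (0.559), CIZ1 (0.557) and the AXL relative TYRO3 (0.554). IGF1R had rhos of -0.276 with macrophage markers (permutation p 0.00014) and 0.238 with cartilage markers (permutation p 0.00118), and its most similar genes were APBA2 (0.555), CACHD1 (0.545), SUN1 (0.507), ZNRF3 (0.492) and NKX3-2 (0.471).

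KIT had a rho of 0.252 with osteoblast markers (permutation p 0.00066) and 0.207 with the mast cell list (permutation p 0.00473). That list rests on 1 gene of 8, GATA2, which other blood and endothelial cells also use. The mast cell protease CPA3 and the histamine enzyme HDC did not pass the filter, with medians of 0.250 and 0.0504 CPM, and the rho of KIT with GATA2 was -0.070 in double-form libraries. After PDGFRA, the genes most like KIT were ZNF623 (0.498), TANC1 (0.488), NIPBL (0.485) and ANKRD17 (0.468). PDGFRA had a rho of 0.223 with osteoblast markers (permutation p 0.00228) and -0.228 with T cell markers (permutation p 0.00187).

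**Figure D4:**
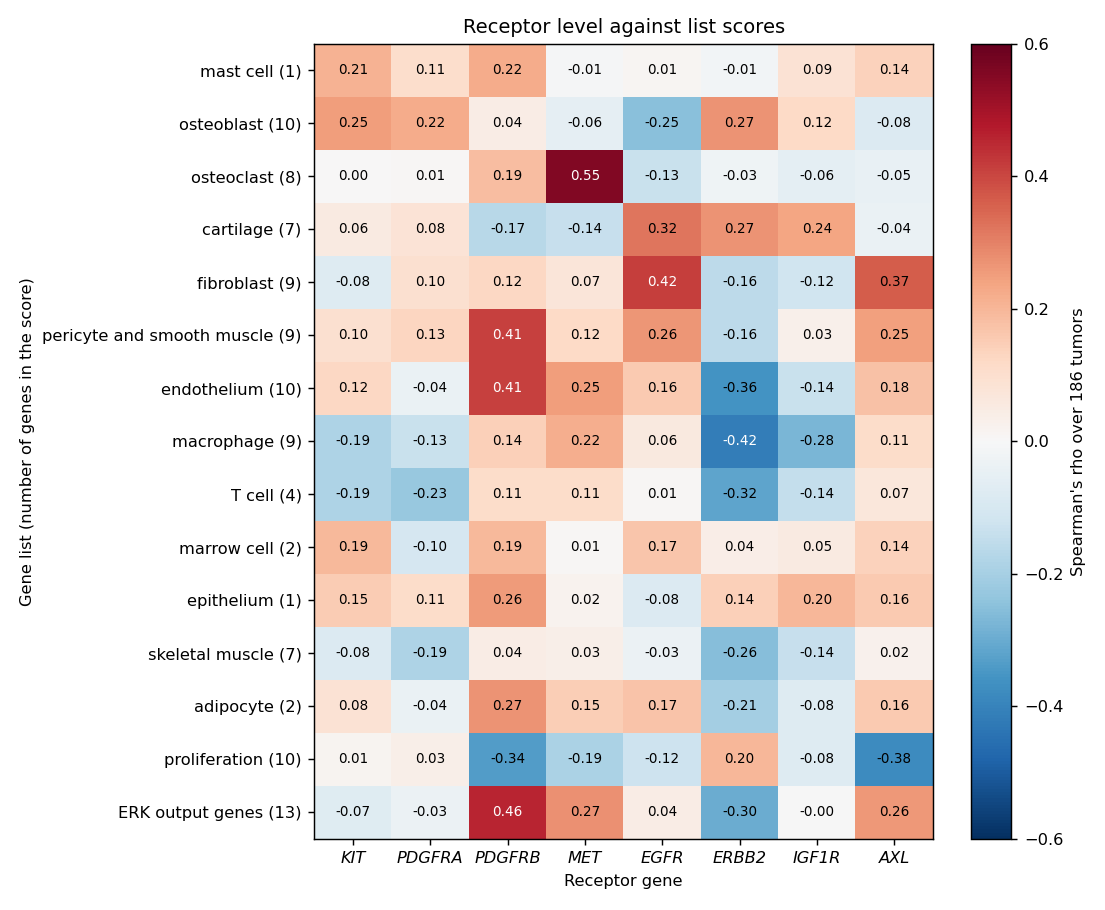
Spearman's rho over 186 tumors between each receptor (columns) and each gene list score (rows, with the number of genes in the score), red for positive and blue for negative. The deepest red is MET with osteoclast markers (0.555), the deepest blue is ERBB2 with macrophage markers (-0.417), and the mast cell and epithelium rows rest on 1 gene each.

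Single tumors far from the rest were listed last, with no test, as those 3.5 or more robust SD (scaled median absolute deviations) from a gene's median log2 level. Over the 8 members 2 values were far above and 13 far below. Ranks are from the highest normalized log2 level, which can differ from the order of CPM. Over all kept genes the mean was 0.508 values above and 0.573 below per gene, and 31.0% and 30.4% of genes had at least 1. IGF1R had none in either direction.

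The highest MET value, 298 CPM (2762 counts, 95% interval 287 to 310) in COTC021 dog 301, lay 3.81 robust SD up and was 12.7 times the median. In that tumor the neighbors TES and ST7, at 386 and 143 kb, were the highest of all 186 tumors, at 309 and 101 CPM against medians of 65.0 and 27.2. CAV1, CAV2 and CTTNBP2 ranked 2, and CAPZA2 and WNT2 ranked 7. TFEC, 432 kb away, was the exception among the 8 kept genes within 1 Mb, at 3.35 CPM and rank 163. In the same tumor KIT was at 0.648 CPM (6 counts, 95% interval 0.238 to 1.41), PDGFRB and ERBB2 ranked 185 of 186 (28.2 and 10.3 CPM), and IGF1R ranked 4 (245 CPM).

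The highest EGFR value, 322 CPM (4064 counts, 95% interval 312 to 332) in COTC021 dog 1106, lay 3.72 robust SD up and was 19.0 times the median. Its neighbors did not rise as evenly: VOPP1 ranked 5 at 57.0 CPM, STK17A 19, SEC61G 21 and LANCL2 24 of 186, while BLVRA and COA1 ranked 101 and 117. The ERK score was the highest of all tumors in dog 1106 (2.68) and the second highest in dog 301 (2.46). Over all 186 tumors the rho with that score was 0.043 for EGFR (permutation p 0.553) and 0.275 for MET (permutation p 0.00022). Both lay inside the central 95% of all genes for the score. The osteoblast scores of both tumors were low, at rank 184 in dog 1106 and 182 in dog 301. Both tumors were singled out after their values were seen.

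**Figure D5:**
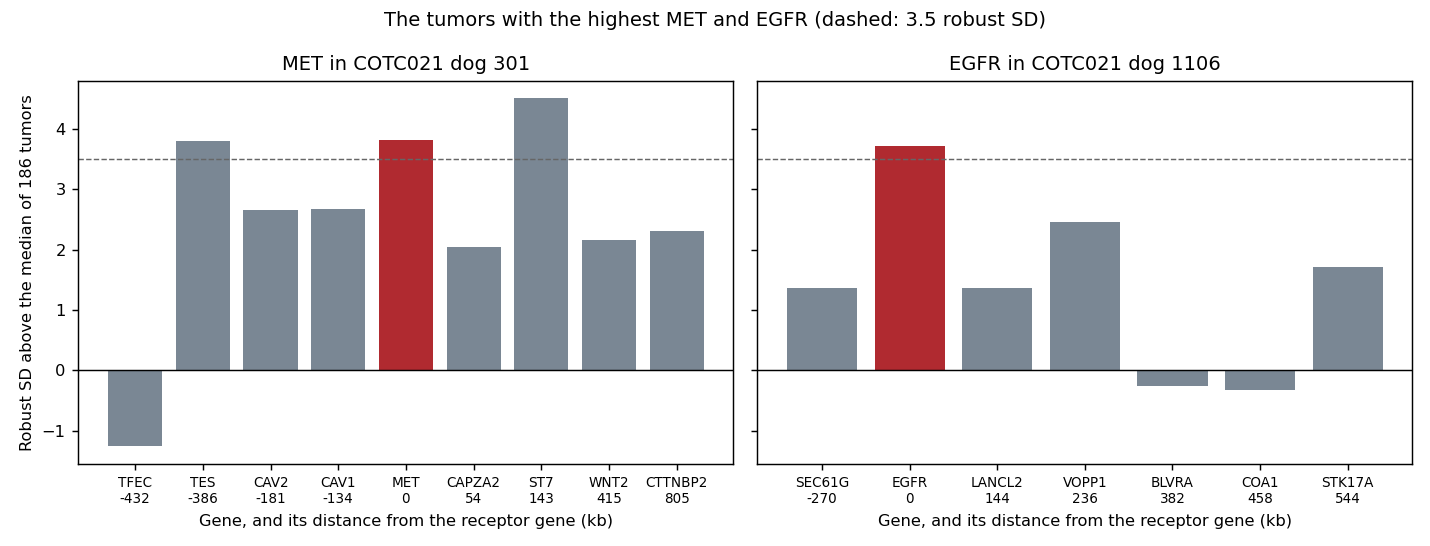
Robust SD from the median of 186 tumors for MET and its named neighbors in COTC021 dog 301 and for EGFR and its named neighbors in COTC021 dog 1106 (bars, receptor in red), with the distance from the receptor gene in kb under each name and a dashed line at 3.5. In dog 301 the bars from TES to CTTNBP2 are all above 2, with ST7 the tallest (4.50), while in dog 1106 EGFR stands alone above 3.5.

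On the quantile-normalized scale 4 low values remained (2 for PDGFRA, 1 for PDGFRB and 1 for ERBB2), and MET, KIT, EGFR and AXL had 0. That scale is log2(CPM + 2), in which the offset narrows differences among values of a few CPM or less. Over all kept genes the mean on it was 0.921 values above and 0.244 below per gene. Of the 13 low values, 5 were MET, between 0.928 and 2.11 CPM (20, 22, 22, 15 and 17 counts). Several list scores were low in these 5 tumors. Osteoclast scores ranked 161 to 176 of 186, endothelial scores 168 to 186 and macrophage scores 143 to 185, and their part in the MET values was not tested. Of the low values 4 belonged to COTC022 dog 1709, in which PDGFRA was 72 counts (4.56 CPM), PDGFRB 245 counts (15.5 CPM), EGFR 13 counts (0.823 CPM) and ERBB2 35 counts (2.21 CPM). In that tumor MET (37.3 CPM, rank 39) and AXL (70.9 CPM, rank 67) were within the upper part of their ranges. The other 4 were KIT in COTC022 dog 1010 and COTC021 dog 301, PDGFRA in COTC022 dog 614 (18.6 CPM) and AXL in COTC021 dog 1009 (2.62 CPM).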

How the data were processed

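RNA from frozen primary tumors was sequenced as stranded mRNA libraries. Per the study's methods, reads were trimmed with Cutadapt, mapped to GSD_1.0 with STAR 2.7.0f and quantified with RSEM 1.3.1. The authors deposited expected counts per gene, not normalized, which divide multi-mapping reads between genes. Of 198 columns, 12 match no sample label and were not used. Values (3.07% not whole) were rounded.

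A gene was kept by the filterByExpr function of edgeR 4.0.16 with a smallest count of 10 (13422 genes). TMM scaling and limma-voom (limma 3.58.1, R 4.3.3) followed, with Benjamini-Hochberg adjustment over all genes kept and a threshold of 0.05. edgeR's quasi-likelihood test and DESeq2 1.42.0 were alternatives. CPM are rounded counts scaled to the library total. The GS-1 score is the mean z-score of quantile-normalized log2(CPM + 2) over 27 genes, scaled to SD 1. Correlations used TMM log2 CPM and two-sided permutation tests with 100000 resamples (scipy 1.17.1, numpy 2.4.6). Gene positions came from RefSeq's table for the same build. The scripts were tested on simulated data. Named genes are the members, the listed ligands, relatives and markers, and the 5 genes most like each member (LOC names left out), of which 1 is not reported here. The members and lists were chosen with earlier results of these data known. The shares of all genes and the central 95% ranges beside the correlations, the alternatives without dog 1709, and the trial comparison within the double-form libraries, were added after seeing the data.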

Additional observations from a re-analysis of the deposited data

How the results depend on the processing

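Of 224 alternative values for single receptors, 185 kept their direction and side of the threshold, and 13 lost a call. The genes called for trial were 129 with edgeR, 71 with DESeq2, 5 in single-form and 0 in double-form libraries. For library name they were 145 within COTC021 and 89 within COTC022. With no filter on low counts they were 13267 of the 30014 genes tested, and KIT was 1 of these (0.56, adjusted p 0.00504). For the GS-1 score they were 3485 within COTC021 and 3399 in double-form libraries, and the interactions had 2 (trial) and 3 (library name) with edgeR. Pairs of receptors with a permutation p under 0.05 were 11 within COTC021 and 9 in double-form libraries, where 26 list relations had one. The shares for all genes were computed over all tumors together and not within these subsets. Whether these subset counts exceed those of other genes was therefore not tested. Outlying values were 2 at 5 robust SD and 6 on the quantile-normalized scale (2 high, 4 low). Over all kept genes the means per gene were 0.0893 above and 0.0872 below at 5 robust SD, and 0.921 and 0.244 on the quantile-normalized scale.

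With the score from TMM values AXL passed (0.22, adjusted p 0.0254) and KIT did not (-0.18, adjusted p 0.0697). KIT also missed in single-form libraries (-0.088), and MET missed in both library forms (0.23 and 0.21). Signs turned in these values, none of which passed: EGFR on the score at 0.19 (DESeq2), 0.18 (edgeR), 0.16 (single-form) and 0.015 (without dog 1709), PDGFRB on the score at -0.017 (COTC022) and -0.090 (double-form), and for trial EGFR at 0.12 (single-form) and 0.0085 (no filter), AXL at 0.051 and MET at 0.34 (double-form). For library name they were AXL at -0.014 (DESeq2) and -0.0066 (edgeR), ERBB2 at -0.11 (COTC022), MET at -0.31 and PDGFRA at 0.34 (COTC021) and PDGFRA at 0.0031 (no filter). For the interaction with trial they were KIT at 0.054 (edgeR) and, without dog 1709, EGFR 0.057, ERBB2 0.024, KIT 0.0099 and PDGFRB 0.088, and for that with library name AXL at 0.011 (edgeR) and, without dog 1709, ERBB2 0.035 and PDGFRB 0.078. Of 408 alternative values for correlations, 69 no longer had a permutation p under 0.05. These were 29 in double-form and 7 in single-form libraries, 17 within COTC021 and 16 within COTC022, with 68 relations in each setting. Without dog 1709, and without the 2 farthest tumors, all 68 stayed the same. In 2 cases the sign changed, KIT with the mast cell list (-0.070, double-form) and PDGFRA with skeletal muscle markers (0.0089, COTC021). The smaller subsets hold fewer tumors, and other causes were not tested. Depth limits the lowest values, such as KIT at 2 counts.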
